A study of Homo sapiens with 6 samples.

Results

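The genes of human chromosome 21 with a mean of at least 10 normalised counts (CPM, counts scaled to the library total) over the 6 libraries are described here in their order along the chromosome. The count table held 828 genes that GENCODE 29 places on chromosome 21 of GRCh38, of which 496 had no count in any library and 154 entered the test across all genes. A total of 87 genes met the minimum of 10 CPM, among 9378 such genes in the whole series and 60683 genes in the table. Of these 87 members, 84 are protein-coding, 51 start within the first 40 Mb of the chromosome and 36 start beyond it. The chromosome and the 40 Mb boundary were selected on the same contrast of ATF4 knockout with parental libraries that is described below. The shift itself is therefore given as a description, with no test.

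RNA sequencing was performed on RCC4 cells, a line of human clear cell renal carcinoma that lacks functional VHL, the ubiquitin ligase component that marks HIF subunits for degradation. The ATF4 knockout (n = 3) was compared with the parental RCC4 line (n = 3), and both share the VHL defect of the line. ATF4 is a bZIP transcription factor of the integrated stress response. Neither the method of knockout, nor the origin of the knockout cells from 1 clone or from many, nor separate cultures for the 3 libraries of a group are given in the labels, so the p-values measure only the spread between these libraries, which may be technical. Loss of ATF4 and any other difference between the 2 cell populations cannot be told apart.

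Chromosome 21 is the smallest human autosome and the one whose extra copy causes Down syndrome. Nearly all of its genes lie on the long arm, where genes of unrelated function stand side by side, among them the amyloid precursor gene APP, a cluster of interferon receptors, the kinase gene DYRK1A and, towards the end of the arm, collagen and integrin genes. Genes that share a stretch of chromosome share its copies and its replication. Most have their own promoter, and neighbours can respond to a transcription factor alike or differently. No DNA measurement was analysed here.

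Total counts were 41002611 to 46755358 in the ATF4 knockout libraries and 42502027 to 44524187 in the parental libraries. The ATF4 transcript itself was at 209.8, 223.4 and 209.2 CPM in the ATF4 knockout libraries, against 239.5, 251.0 and 242.6 CPM in the parental libraries. The groups did not overlap, but the difference was small (log2 fold change -0.19 ± 0.03 SE, adjusted p = 3.19e-07, edgeR), so the transcript level alone shows no loss of ATF4, and the group names below follow the labels. ATF4 lies on chromosome 22, whose genes of at least 10 CPM had a median log2 fold change of -0.30. Of 12 renal epithelial and RCC4 markers, 9 reached 1 CPM in at least 1 library, and VCAM1, LRP2 and CUBN did not. The sums were 7210 to 7391 CPM in ATF4 knockout and 6570 to 6958 CPM in parental libraries. VIM made up most of each sum, with means of 5166 CPM in ATF4 knockout and 4808 CPM in parental libraries. CA9 averaged 96.9 CPM in ATF4 knockout and 16.6 CPM in parental libraries. The other markers that reached 1 CPM differed less, in both directions. Of 9 markers of leukocytes, endothelium and other epithelium, 1 (EPCAM) reached 1 CPM. Their sums were 51.1 to 56.7 CPM in ATF4 knockout and 57.8 to 61.9 CPM in parental libraries. The T cell marker CD3E was at 0 in every library.

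The 87 members fell into a lower stretch and a higher stretch. Levels are CPM after TMM scaling, and fold changes are ATF4 knockout over parental on the log2 scale, from edgeR's quasi-likelihood test with Benjamini-Hochberg adjustment over 15321 genes, and a gene was called where its adjusted p was below 0.05. Up to 40 Mb the median log2 fold change was -0.31, a median level 1.24-fold lower in the ATF4 knockout, and 50 of 51 members had a negative value. Beyond 40 Mb the median was 0.10, and the difference, up to 40 Mb minus beyond, was -0.41. Over all tested genes the median was 0.01, and over the 9291 genes of at least 10 CPM on other chromosomes it was also 0.01. In bulk RNA, fewer cells with a transcript and less of it per cell cannot be told apart.

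Up to 40 Mb, 45 of the 51 members were called lower, none was called higher and 6 were not called, while 20.8% of all tested genes were called lower and 21.2% were called higher. The 6 were NRIP1, MIS18A, PAXBP1, DONSON, CHAF1B and ETS2. Beyond 40 Mb, 4 members were called lower, 20 were called higher and 12 were not called. The 20 became 13 without ATF4 knockout replicate 2 and 13 without parental replicate 2. The levels of ATF4 knockout and parental libraries did not overlap, with the knockout lower, in 46 of 51 members up to 40 Mb and in 4 of 36 beyond, against 24.3% of all tested genes. They did not overlap, with the knockout higher, in 1 of 51 and in 18 of 36 members, against 25.3% of all tested genes. These counts describe the contrast on which the chromosome was chosen, and nothing further is read from them.

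The change of level lay beyond 40 Mb. When the members were put in order of gene start and split once so that 2 means left the least residual sum of squares, with at least 5 members on each side, the split fell between RIPK4 and PRDM15. RIPK4 lies at chr21:41739369-41767106 and PRDM15 at chr21:41798225-41879482 (GRCh38, GENCODE 29), which leaves 31119 bases between them. This split explained 53.6% of the variance of log2 fold change among members, against 45.6% for the split at 40 Mb, which falls between B3GALT5 and BACE2. The next best splits lay beside it, at 48.0% for the split before RIPK4 and 47.4% for each of the splits after PRDM15 and after C2CD2. The gap at the 40 Mb boundary itself is 1494664 bases wide between B3GALT5 and BACE2, and no member lies in it.

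**Figure D1:**
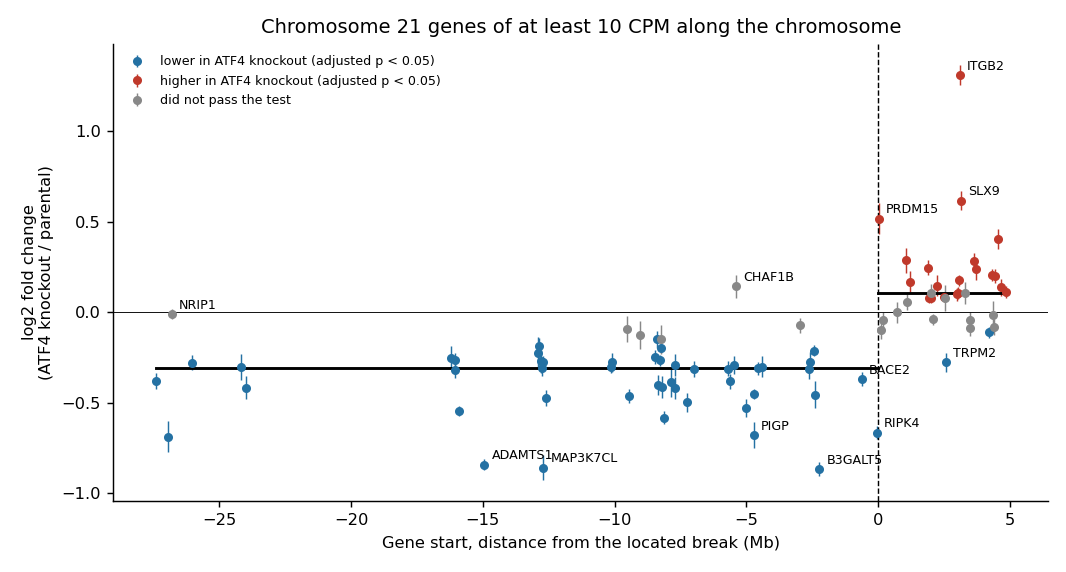
Log2 fold change (ATF4 knockout over parental, points with SE) of the 87 members against the distance of the gene start from the located break in Mb; thick lines are the medians, -0.31 before and 0.11 after the break. Almost all points left of the dashed line lie below 0, and the level changes between RIPK4 and PRDM15.

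**Figure D2:**
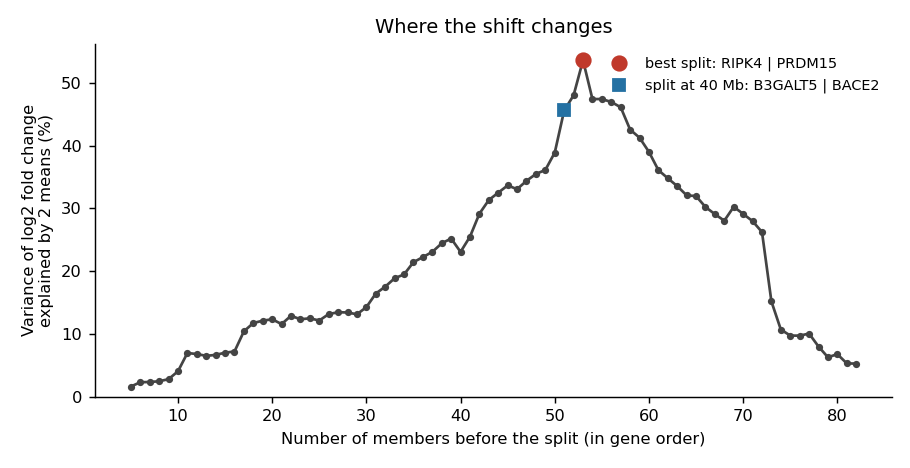
Percent of the variance of log2 fold change explained by 2 means, for each split of the 87 members in gene order with at least 5 members on each side. The curve peaks at 53.6% with 53 members before the split (circle), above the 45.6% of the split at 40 Mb (square).

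The located break put 53 members before it and 34 after it. Before the break the median log2 fold change was -0.31 (quartiles -0.45 and -0.27), with 47 members called lower and none higher. After it the median was 0.11 (quartiles -0.01 and 0.20), a median level 1.08-fold higher in the ATF4 knockout, with 20 members called higher and 2 called lower. The difference of the medians, before minus after, was -0.42. The median absolute deviation among members was 0.10 before and 0.11 after the break. Among genes of at least 10 CPM on other chromosomes it was 0.12, but around 1 median for all these chromosomes together. Around the median of their own chromosome it was 0.09 for chromosome 22 and 0.10 for chromosome 20. Members thus scattered about as much as the genes of these 2 chromosomes. The median standard error of 1 member's log2 fold change was 0.05.

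The shift had the same size in each library. Relative to the mean of the parental libraries, the median of the 53 members before the break was -0.33, -0.31 and -0.33 in the ATF4 knockout libraries on the log2 scale, with 52 of 53 members below 0 in each. Each parental library, set against the other parental libraries, had a median of -0.00, -0.01 and 0.00, with 25 to 37 of the 53 below 0. The 34 members after the break had medians of 0.10, 0.13 and 0.08 in the ATF4 knockout libraries and of 0.01, -0.02 and 0.01 in the parental libraries. Summed over members, the stretch before the break held 4402, 4393 and 4376 CPM in the ATF4 knockout libraries, against 5798, 5853 and 5798 CPM in the parental libraries. After the break the sums were 3467, 3507 and 3426 CPM in the ATF4 knockout and 3157, 3197 and 3186 CPM in the parental libraries. On both sides the sums of the groups did not overlap, and they moved in opposite directions. Sums weigh the abundant members most. Before the break APP alone averaged 1370 CPM in the ATF4 knockout and 2001 CPM in the parental libraries. After it PTTG1IP averaged 658 CPM in the ATF4 knockout and 582 CPM in the parental libraries.

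**Figure D3:**
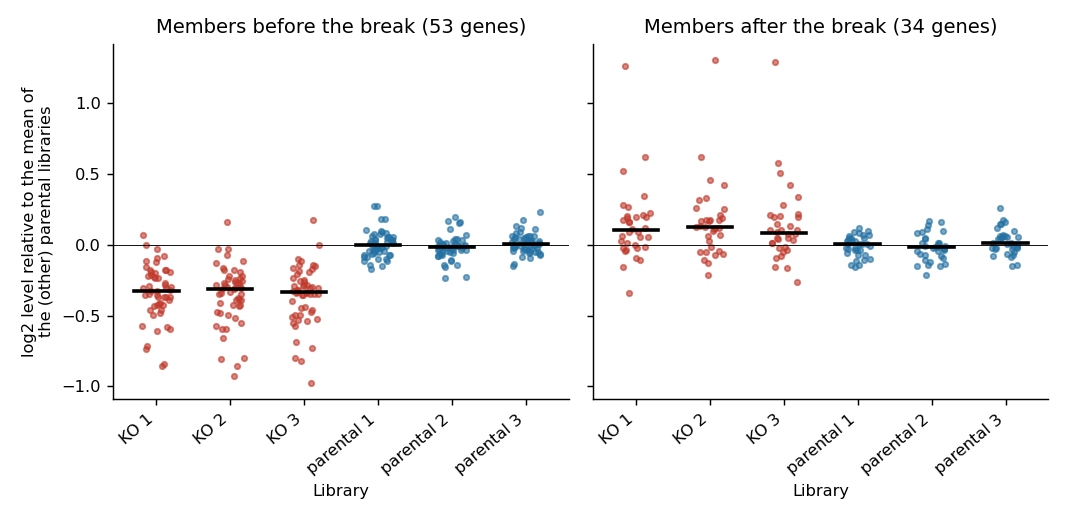
Log2 level of each member relative to the mean of the parental libraries (for a parental library, of the other parental libraries), by library, before (left) and after (right) the break; bars are medians. The ATF4 knockout medians before the break lie at -0.33, -0.31 and -0.33 and those after it at 0.10, 0.13 and 0.08, while the parental medians stay between -0.02 and 0.01.

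Within each stretch the median was compared by strand, level and position. The 22 members before the break on the plus strand and the 31 on the minus strand had the same median, -0.31. The 26 members before the break with the higher mean CPM had a median of -0.31 and the other 27 a median of -0.30. From the centromere outwards, the medians were -0.32 for the first 11 members (HSPA13 to ADAMTS1), -0.28 for the next 12 (N6AMT1 to PAXBP1), -0.31 for 13 (IFNAR1 to RUNX1), -0.31 for 12 (CBR1 to BRWD1) and -0.46 for the last 5 (HMGN1, GET1, B3GALT5, BACE2 and RIPK4). The last of these rests on few genes, and its range ran from -0.87 to -0.21. After the break the medians were 0.06 for the first 7 members, 0.10 for the next 14 and 0.11 for the last 13, all above 0.

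The genes next to the break were examined one at a time. B3GALT5, which encodes a galactosyltransferase of glycan synthesis, was at 49.4, 47.03 and 51.4 CPM in the ATF4 knockout libraries, against 91.3, 88.2 and 90.7 CPM in the parental libraries (log2 fold change -0.87 ± 0.04 SE, adjusted p = 5.16e-26). BACE2, which encodes a protease related to the enzyme that cuts APP, was at 70.4, 65.0 and 62.2 CPM, against 89.1, 82.0 and 83.9 CPM in the parental libraries (-0.37 ± 0.04, adjusted p = 2.16e-10). RIPK4, which encodes a kinase of epithelial differentiation, was at 60.8, 66.2 and 62.1 CPM in the ATF4 knockout, against 101, 102 and 97.4 CPM in the parental libraries (-0.67 ± 0.04, adjusted p = 4.73e-22). All 3 were lower in every ATF4 knockout library than in any parental library, and BACE2 and RIPK4 lie beyond 40 Mb. MX1, an interferon-induced antiviral gene between BACE2 and RIPK4, averaged 3.27 CPM, below the minimum for members, and was not called (-0.14 ± 0.14).

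Across the break the order of the groups turned round at PRDM15 and WDR4, but not at the 3 members between them. PRDM15, which encodes a zinc finger protein with a PR domain, was at 13.1, 12.5 and 12.9 CPM in the ATF4 knockout libraries, against 9.25, 8.05 and 9.62 CPM in the parental libraries (0.52 ± 0.08, adjusted p = 1.11e-06). C2CD2, a gene for a protein with a C2 domain, was at 36.0, 37.3 and 39.2 CPM in the ATF4 knockout and 38.0, 42.2 and 40.2 CPM in the parental libraries (-0.10 ± 0.05, adjusted p = 0.105). ZBTB21, which encodes a BTB and zinc finger transcriptional regulator, was at 41.3, 39.4 and 38.3 CPM in the ATF4 knockout and 40.2, 40.5 and 41.9 CPM in the parental libraries (-0.04 ± 0.05, adjusted p = 0.482). The last 2 had overlapping groups. SLC37A1, a sugar phosphate carrier gene, had almost equal levels, 21.2, 22.4 and 22.1 CPM in the ATF4 knockout and 22.4, 21.6 and 21.8 CPM in the parental libraries (-0.00 ± 0.06, adjusted p = 0.997). WDR4, whose product is part of a tRNA methyltransferase, was higher, at 17.6, 19.1 and 18.4 CPM in the ATF4 knockout, against 15.2, 14.0 and 15.9 CPM in the parental libraries (0.29 ± 0.07, adjusted p = 0.00049). The 3 members that follow PRDM15 thus lay between the 2 medians.

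**Figure D4:**
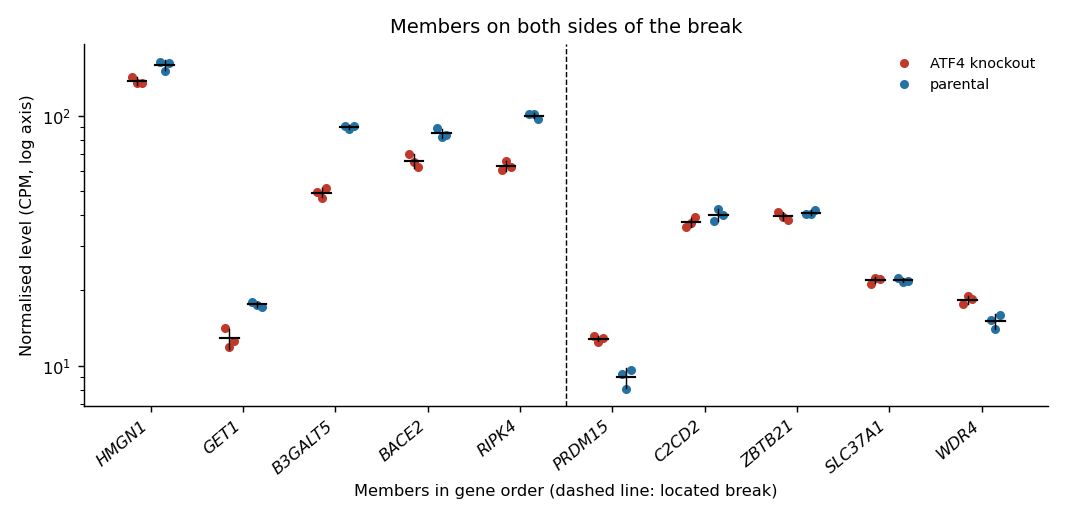
Normalised level (CPM, log axis) of the 5 members on each side of the break in the ATF4 knockout (left of each pair) and parental libraries, with the mean and SD of 3 libraries. The knockout lies below the parental libraries for the 5 genes left of the dashed line, and above them for PRDM15 and WDR4.

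Promoter windows were taken from RefSeq (GRCh38.p14), which matched 69 of the 87 members with 113 windows of 250 bases before and 50 bases after a transcription start. The windows of PRDM15 and C2CD2 are shown because these are the first members after the break. The 250 bases before the outermost start of PRDM15 lie at chr21:41879345-41879594 and those of C2CD2 at chr21:41954019-41954268, both on the minus strand. Neither holds TGATGCAA, the core of the composite element bound by C/EBP and ATF factors, or TGACGTCA, the cyclic AMP response element, on either strand, so no base is in capitals.
PRDM15: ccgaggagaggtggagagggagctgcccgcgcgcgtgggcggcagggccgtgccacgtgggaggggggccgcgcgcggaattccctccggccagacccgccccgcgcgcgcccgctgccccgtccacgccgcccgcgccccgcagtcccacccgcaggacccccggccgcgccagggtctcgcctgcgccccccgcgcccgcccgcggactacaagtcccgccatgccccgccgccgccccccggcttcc
C2CD2: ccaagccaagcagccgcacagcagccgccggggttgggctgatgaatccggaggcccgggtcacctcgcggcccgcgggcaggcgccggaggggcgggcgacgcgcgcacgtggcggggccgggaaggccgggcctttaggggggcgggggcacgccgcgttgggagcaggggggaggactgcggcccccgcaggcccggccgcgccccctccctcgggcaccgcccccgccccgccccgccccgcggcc
Both are rich in G and C, at 82.8% each.

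On both strands, TGATGCAA occurred in 1 of the 113 member windows (0.885%), in DYRK1A, against 0.866% of all 35116 windows of that length. TGACGTCA occurred in 3 (2.65%), in RCAN1, RRP1 and ZBTB21, against 1.85% of all windows. The windows of RCAN1, DYRK1A and RRP1 are shown because they hold the letters within the 250 bases before a start, and the match is in capitals (in DYRK1A, on the opposite strand). They lie at chr21:34526823-34527072 (minus strand, an inner start), chr21:37420049-37420298 (plus strand, an inner start) and chr21:43789327-43789576 (plus strand). In ZBTB21 the letters lie in the 50 bases after the start.
RCAN1: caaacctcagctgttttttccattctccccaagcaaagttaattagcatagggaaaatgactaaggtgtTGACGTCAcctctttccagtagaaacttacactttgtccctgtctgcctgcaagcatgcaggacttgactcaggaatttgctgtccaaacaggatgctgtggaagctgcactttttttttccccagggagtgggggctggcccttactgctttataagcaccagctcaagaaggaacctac
DYRK1A: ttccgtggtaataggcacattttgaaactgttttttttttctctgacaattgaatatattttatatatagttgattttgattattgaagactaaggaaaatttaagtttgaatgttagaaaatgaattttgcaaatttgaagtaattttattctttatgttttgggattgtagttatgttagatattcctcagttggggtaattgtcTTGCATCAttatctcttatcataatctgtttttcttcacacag
RRP1: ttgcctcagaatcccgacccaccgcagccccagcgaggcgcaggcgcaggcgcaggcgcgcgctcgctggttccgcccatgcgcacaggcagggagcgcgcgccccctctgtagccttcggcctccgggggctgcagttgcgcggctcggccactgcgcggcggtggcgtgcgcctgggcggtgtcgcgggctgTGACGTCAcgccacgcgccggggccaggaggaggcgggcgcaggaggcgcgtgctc
A match is a description of these letters and not of a bound site.

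Single members were next compared with their neighbours, by a fit in which the median of the other members of the same stretch (up to or beyond 40 Mb) was entered as an offset. In this fit 40 of the 87 members differed from their stretch, 22 lower and 18 higher, while 20.6% of all tested genes were called lower and 21.1% higher in the same fit, in which genes other than the members had no offset. In the fit without offsets, 26.5% of genes of at least 10 CPM on other chromosomes were called lower and 26.8% higher. These genes are closer to the members in level, but they were not set against the median of their own chromosome. The members' shares of 25.3% lower and 20.7% higher therefore have no like background here. The members below are described one by one, and their number is not a result about the chromosome. The standard errors leave out the error of the median. With the break in place of 40 Mb as the boundary, 21 were lower and 19 higher. The difference from the stretch was at least 0.5 on the log2 scale for ADAMTS1, MAP3K7CL, B3GALT5, RIPK4, ITGB2 and SLX9, and for RIPK4 it was -0.36 once RIPK4 was counted before the break. BACE2 differed by -0.47 from the members beyond 40 Mb and by -0.06, not called, from those before the break.

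Several members fell by more than their stretch, among them APP and ADAMTS1. APP, the amyloid precursor gene and the member with the highest mean level, was at 1344, 1400 and 1365 CPM in the ATF4 knockout libraries, against 1961, 2066 and 1975 CPM in the parental libraries (-0.55 ± 0.03, adjusted p = 3.92e-23). It lay -0.24 from its stretch (adjusted p = 4.55e-10). ADAMTS1, which encodes a secreted metalloprotease of the matrix, was at 108.6, 107.5 and 110.5 CPM, against 200.8, 191.7 and 193.8 CPM in the parental libraries (-0.84 ± 0.03, adjusted p = 1.46e-30), and lay -0.54 from its stretch (adjusted p = 8.25e-22). In both genes the highest ATF4 knockout library was below the lowest parental library. MAP3K7CL, a gene named for its likeness to a MAP kinase kinase kinase, was at 13.8, 13.2 and 11.6 CPM in the ATF4 knockout, against 23.1, 23.0 and 23.8 CPM in the parental libraries (-0.86 ± 0.07, adjusted p = 6.71e-16). PIGP, a gene of GPI anchor synthesis, was at 12.5, 11.8 and 11.2 CPM in the ATF4 knockout, against 19.6, 18.8 and 18.3 CPM in the parental libraries (-0.68 ± 0.07, adjusted p = 1.21e-11). These 2 lay -0.55 and -0.37 from their stretch. ITSN1, an endocytic scaffold gene, lay -0.28 from it (adjusted p = 2.60e-09), HLCS, which encodes the enzyme that attaches biotin to carboxylases, -0.22 (adjusted p = 0.000213) and RCAN1, a regulator of calcineurin, -0.19 (adjusted p = 0.00207).

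A few members before the break stood above their stretch. NRIP1, which encodes a corepressor of nuclear receptors, had 248.2, 244.0 and 247.7 CPM in the ATF4 knockout libraries and 252.4, 251.7 and 241.3 CPM in the parental libraries, with overlapping groups (-0.01 ± 0.03, adjusted p = 0.797). Its difference from its stretch was 0.30 (adjusted p = 2.76e-13). CHAF1B, a subunit of the chromatin assembly factor that loads histones onto replicated DNA, had 18.8, 20.03 and 20.3 CPM in the ATF4 knockout and 17.1, 18.2 and 18.3 CPM in the parental libraries (0.14 ± 0.06, adjusted p = 0.0682). With TMM scaling it was the only member before the break with a positive log2 fold change, and it lay 0.45 above its stretch (adjusted p = 4.10e-08). With scaling by total counts CHAF1B was called higher (0.17), and NRIP1 was at 0.02 and not called. CHAF1B overlaps the end of MORC3 on the same strand, where a read cannot be assigned to 1 gene, and MORC3 was called lower (-0.29 ± 0.05). ETS2, a transcription factor gene of the ETS family, had 58.8, 57.0 and 55.4 CPM in the ATF4 knockout and 61.6, 58.2 and 60.1 CPM in the parental libraries, and lay 0.24 above its stretch (adjusted p = 2.82e-06).

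After the break ITGB2 and SLX9 differed most. ITGB2, which encodes the beta subunit of leukocyte integrins, was at 40.2, 41.4 and 40.98 CPM in the ATF4 knockout libraries, against 15.2, 17.8 and 16.4 CPM in the parental libraries (1.31 ± 0.06, adjusted p = 8.70e-27), a 2.48-fold higher level. PTPRC, a general leukocyte marker, was at or below 0.09 CPM in every library. SLX9, a gene of ribosome assembly, was at 36.5, 36.5 and 35.5 CPM in the ATF4 knockout, against 22.9, 22.6 and 25.3 CPM in the parental libraries (0.62 ± 0.05, adjusted p = 2.58e-14). Both genes lie close together, and of the low genes beside them the antisense gene ITGB2-AS1 (0.72 ± 0.22, adjusted p = 0.0051) and LINC01547 (1.23 ± 0.12, adjusted p = 2.30e-12) were also called higher. The reads of ITGB2 and of ITGB2-AS1, on the other strand, are told apart only where the authors counted by strand, and their setting is not given in the sources used here. PCNT, which encodes a scaffold protein of the centrosome, was also higher than its stretch by 0.30 (0.40 ± 0.05 against the parental libraries, adjusted p = 1.39e-08). In the opposite direction TRPM2, a cation channel gene, was at 27.2, 29.8 and 28.7 CPM in the ATF4 knockout, against 36.0, 34.4 and 33.5 CPM in the parental libraries (-0.28 ± 0.05, adjusted p = 1.80e-05).

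The members are given next by function. The groups overlap, and TTC3, PRDM15, ZBTB21, PDXK and PFKL are each counted again in another group. Before the break 88.7% of all 53 members were called lower, and after it 58.8% of all 34 were called higher, whatever their function, so the group counts below describe the members and set no group apart from its stretch. In the interferon receptor cluster IFNAR1, a chain of the type I interferon receptor, was at 63.1, 64.6 and 68.3 CPM in the ATF4 knockout libraries, against 78.1, 76.4 and 78.2 CPM in the parental libraries (-0.25 ± 0.04, adjusted p = 3.03e-07). IFNGR2, a chain of the interferon gamma receptor, was at 40.7, 43.0 and 42.1 CPM, against 45.1, 47.4 and 47.2 CPM in the parental libraries (-0.15 ± 0.05, adjusted p = 0.00615). Both were called lower, and IFNGR2 lay 0.16 above its stretch (adjusted p = 0.00314). IFNAR2, the other chain of the type I receptor, was below the minimum for members with a mean of 7.58 CPM and was also called lower (-0.48 ± 0.10, adjusted p = 5.00e-05), so that 3 of the 4 tested genes of the group of interferon receptors and interferon-induced genes were lower, the exception being MX1.

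Of the group of mitochondrial proteins, all 4 members before the break were called lower, with a median of -0.33 beside -0.31 for the stretch. ATP5PF, a subunit of ATP synthase, was at 56.5, 54.8 and 53.7 CPM in the ATF4 knockout libraries, against 66.6, 65.9 and 65.9 CPM in the parental libraries (-0.27 ± 0.04, adjusted p = 1.42e-07). The others were ATP5PO, another subunit of ATP synthase, and the mitochondrial ribosomal protein genes MRPS6 and MRPL39. After the break NDUFV3, a subunit of respiratory complex I, was not called (0.06 ± 0.04). Of the group of proteolysis, ubiquitin and protein folding, 9 of 9 members before the break were called lower (median -0.31) and 2 of 2 after it were called higher (median 0.09). These 2 were CSTB, a cathepsin inhibitor gene, and UBE2G2, a ubiquitin-conjugating enzyme gene. CSTB was not called without ATF4 knockout replicate 2 (0.05), parental replicate 2 (0.07) or parental replicate 3 (0.07), and UBE2G2 was not called without ATF4 knockout replicate 1 (0.06) or parental replicate 2 (0.07). CCT8, a subunit of the chaperonin that folds actin and tubulin, was at 210, 201 and 190 CPM in the ATF4 knockout, against 238, 242 and 247 CPM in the parental libraries (-0.27 ± 0.03, adjusted p = 9.52e-11). TTC3, a ubiquitin ligase gene, fell by 0.45 ± 0.03 (adjusted p = 7.47e-20).

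The group of transcription factors, in which the corepressor NRIP1 was also counted, had 5 members before the break. GABPA, BACH1 and RUNX1 were called lower, and NRIP1 and ETS2 were not. BACH1, a heme-binding repressor of antioxidant genes, was at 37.6, 39.95 and 37.6 CPM in the ATF4 knockout libraries, against 51.6, 53.5 and 54.8 CPM in the parental libraries (-0.47 ± 0.05, adjusted p = 6.97e-13). RUNX1, a runt family factor of blood formation, was at 45.7, 48.7 and 50.5 CPM, against 57.5, 59.8 and 62.6 CPM in the parental libraries (-0.31 ± 0.04, adjusted p = 3.48e-08). Its difference from its stretch was 0 to 2 decimals (-0.00, adjusted p = 0.945). After the break PRDM15 and PKNOX1, a homeobox gene (0.17 ± 0.06, adjusted p = 0.0231), were called higher and ZBTB21 was not. The call of PKNOX1 was lost without ATF4 knockout replicate 2 (0.16) or 3 (0.15) and without parental replicate 2 (0.17) or 3 (0.15).

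RNA and ribosome genes and chromatin genes had members on both sides. In the group of RNA splicing, processing and ribosome biogenesis, 3 of 4 members before the break were lower and 3 of 5 after it were higher. SON, a splicing cofactor and one of the members with the highest levels, was at 262.8, 251.2 and 264.1 CPM in the ATF4 knockout libraries, against 299.3, 296.3 and 297.8 CPM in the parental libraries (-0.20 ± 0.03, adjusted p = 3.16e-08). URB1, a gene of ribosomal subunit assembly, fell by 0.46 ± 0.04 (adjusted p = 3.76e-15), while RRP1B, another nucleolar protein gene after the break, was at 77.6, 76.5 and 73.3 CPM in the ATF4 knockout, against 66.5, 59.6 and 65.5 CPM in the parental libraries (0.25 ± 0.04, adjusted p = 8.69e-07). In the chromatin group 3 of 5 members before the break were lower, among them the nucleosome-binding HMGN1 (-0.21 ± 0.03, adjusted p = 1.89e-07), and 3 of 4 after it were higher, among them the SUMO gene SUMO3 (0.11 ± 0.03, adjusted p = 0.00419; 0.07 and not called without parental replicate 2).

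Of the group of kinases and signalling regulators, 5 of 5 members before the break were called lower, against 88.7% of all members there, with a median of -0.58. DYRK1A, a kinase studied in Down syndrome, was at 27.1, 30.9 and 27.4 CPM in the ATF4 knockout libraries, against 38.1, 34.4 and 32.7 CPM in the parental libraries (-0.30 ± 0.06, adjusted p = 2.98e-05). RCAN1 was at 26.4, 26.4 and 25.9 CPM, against 35.4, 37.3 and 38.6 CPM in the parental libraries (-0.50 ± 0.05, adjusted p = 8.60e-12). In both, every ATF4 knockout library was below every parental library. After the break 2 of 3 members of the group, the metabolic kinase genes PDXK and PFKL, were called higher, by 0.08 and 0.09 on the log2 scale, and TRPM2 was called lower. The call of PDXK was lost without any 1 of 5 libraries, the exception being ATF4 knockout replicate 1 (0.06 to 0.08 without those 5).

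Of the metabolic genes, 6 of 6 members were called lower before the break, with the median of the stretch (-0.31). After it 3 of 6 were called higher (median 0.04), beside 58.8% of all members there. PDXK and PFKL, also counted with the kinases, are among these 3. SOD1, the cytosolic superoxide dismutase, was at 201, 186 and 184 CPM in the ATF4 knockout libraries, against 232, 235 and 238 CPM in the parental libraries (-0.30 ± 0.03, adjusted p = 2.55e-12). GART, an enzyme of purine synthesis, was at 131, 129 and 125 CPM, against 149, 154 and 158 CPM in the parental libraries (-0.27 ± 0.03, adjusted p = 2.29e-10). Both lay within 0.05 of their stretch. PFKL, the liver form of phosphofructokinase in glycolysis, was at 406.3, 414.1 and 393.8 CPM in the ATF4 knockout and 382.2, 384.1 and 377.5 CPM in the parental libraries (0.09 ± 0.03, adjusted p = 0.00889). It was not called without ATF4 knockout replicate 2 (0.07). SLC19A1, the reduced folate carrier, was higher by 0.24 ± 0.06 (adjusted p = 0.000989), and overlaps COL18A1 on the other strand.

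Of 4 matrix and adhesion members after the break, ITGB2, COL18A1 and COL6A2 were called higher and COL6A1 lower, a count near the 58.8% called higher among all members there. COL18A1, the collagen gene that gives rise to endostatin, was at 274.4, 299.3 and 304.2 CPM in the ATF4 knockout libraries, against 228.7, 256.8 and 237.2 CPM in the parental libraries (0.28 ± 0.05, adjusted p = 0.000856). COL6A2 was at 211, 213 and 213 CPM, against 175, 198 and 178 CPM in the parental libraries (0.21 ± 0.03, adjusted p = 9.66e-06). Its neighbour COL6A1, which encodes another chain of collagen VI, was at 152, 154 and 144 CPM in the ATF4 knockout, against 161, 170 and 156 CPM in the parental libraries (-0.11 ± 0.03, adjusted p = 0.00344). The genes of 2 chains of the same collagen thus had opposite directions, but COL6A1 was no longer called without parental replicate 2 (-0.08). PTTG1IP, a membrane glycoprotein gene and the member with the second highest mean level, was at 675.3, 658.3 and 639.3 CPM in the ATF4 knockout, against 575.7, 578.3 and 592.6 CPM in the parental libraries (0.18 ± 0.03, adjusted p = 5.60e-07).

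Several members overlap another gene, and their counts are uncertain to that extent. On the same strand MRPS6 overlaps SLC5A3, MORC3 overlaps CHAF1B and NRIP1 overlaps AF127577.4. On the opposite strand, where the counts depend on the strand setting, ATP5PF overlaps GABPA, SON overlaps GART and DONSON, IFNGR2 overlaps TMEM50B, ITSN1 overlaps CRYZL1 and COL18A1 overlaps SLC19A1. Members of most of these pairs had the same direction, and CHAF1B, NRIP1 and DONSON were not called while their partners were called lower.

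Genes of the chromosome under the minimum were looked at in the same way. Of the tested genes from 1 to under 10 CPM, the 25 before the break had a median of -0.25, with 10 called lower and 3 higher, and the 11 after it a median of 0.49, with none lower and 7 higher, beside 20.8% lower and 21.2% higher among all tested genes. The 3 called higher before the break were TIAM1, a guanine exchange factor gene on the long arm (0.96 ± 0.23, adjusted p = 0.000405), and FP565260.1 and SIK1B, which GENCODE 29 places on the short arm. SIK1B is a near copy of SIK1, which lies after the break. SIK1B had 159, 204 and 182 counts in the ATF4 knockout and 102, 114 and 98 counts in the parental libraries, and SIK1 had 58, 72 and 67 counts in the ATF4 knockout and 39, 45 and 37 counts in the parental libraries. Both were called higher, and reads shared between such copies can be lost or split in counting. The splicing factor gene U2AF1 and the cystathionine synthase gene CBS, which also have near copies on the short arm, had at most 13 counts and 0 counts in any library and are not members. The part of the copies in these counts was not tested. The members just above the minimum were N6AMT1 (10.1 CPM), PRDM15 (10.9 CPM) and AF127577.4 (11.1 CPM), and the genes just below it were LINC01426 (9.12 CPM), SETD4 (8.96 CPM) and SYNJ1 (8.90 CPM), with log2 fold changes of -0.22, 0.52 and -0.69 inside and of -0.08, -0.35 and -0.45 outside.

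The members were also set beside the other chromosomes. Taken whole, chromosome 21 had the third lowest of 23 medians (-0.22), after chromosome 22 (-0.30, 211 genes) and the X chromosome (-0.24, 321 genes). The 53 members before the break had a median of -0.31, below that of every other chromosome. The 34 after it had a median of 0.11, above that of every other chromosome. Chromosome 17 came next at 0.08, with 238 of 556 genes called higher, then chromosome 14 at 0.07 and chromosome 10 at 0.06. The part after the break thus lay only a little above these chromosomes. Chromosome 21 was cut where the same fold changes differ most, while the other chromosomes were taken whole and no segment of them was compared, so the cut itself favours positions at the ends. No test was made of this order. On chromosome 22, 183 of 211 genes were called lower and 6 higher, a share (86.7% lower) close to that of the members before the break (88.7% lower). Most genes were also called lower on the X chromosome (77.3%), chromosome 20 (63.8%) and chromosome 11 (60.7%), with 17, 23 and 32 genes called higher. On the remaining chromosomes at most 45.9% were called lower (chromosome 6).

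**Figure D5:**
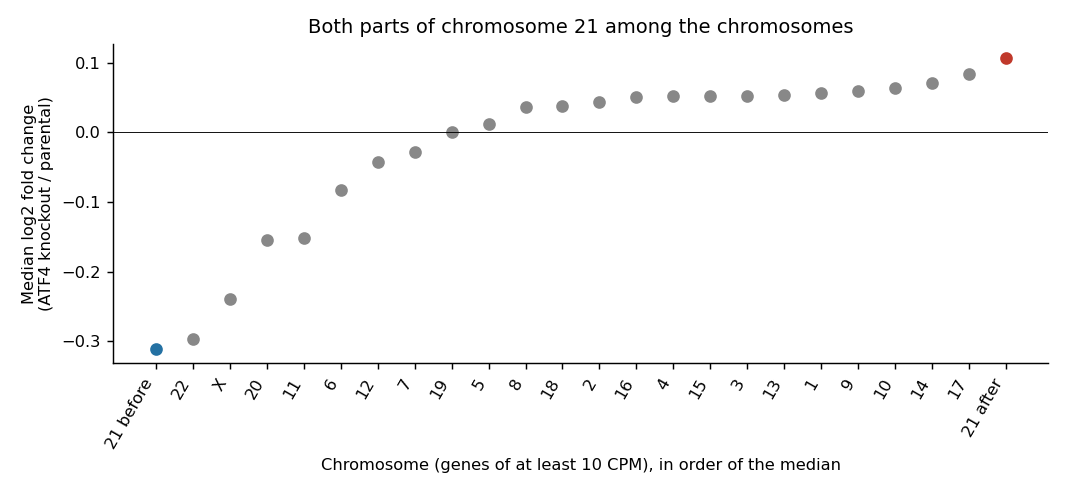
Median log2 fold change (ATF4 knockout over parental) of genes of at least 10 CPM on each chromosome, in order of the median, with chromosome 21 in 2 parts. The part before the break lies lowest at -0.31 next to chromosome 22 at -0.30. The part after the break lies highest at 0.11, next to chromosome 17 at 0.08.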

How the data were processed

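Polyadenylated RNA was sequenced in 3 ATF4 knockout and 3 parental RCC4 samples. The authors deposited raw counts of reads per Ensembl gene, used here as deposited; the submitters' processing notes name bcl2fastq 2.20, cutadapt, STAR, HTSeq and GRCh38, without other versions, the annotation release or the strand setting. Reads that overlap several genes are dropped in HTSeq's default mode. Symbols came from a table of gene names (42013 genes) and from GENCODE 29 (16559 genes), which placed 58496 of 60683 genes. Of the 2187 genes not placed, 2 had a mean of at least 10 CPM, and RefSeq placed neither on chromosome 21.

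Genes were kept by filterByExpr (15321), scaled by TMM factors and tested with edgeR 4.0.16 (glmQLFit robust, glmQLFTest) in R 4.3.3, with group as the only term and Benjamini-Hochberg adjustment over all tested genes (below 0.05 called). Errors of log2 fold changes are standard errors of the fit. Levels are CPM by total counts for the choice of members and after TMM scaling for printed levels and the fit, and per-library log2 levels had a pseudocount of 0.5 CPM. For counting error alone, 3 counts correspond to 0.0642 to 0.0732 CPM, the most that a count of 0 allows. Chi-square per degree of freedom was 3.59 to 5.80 between libraries of a group, so each was kept as a sample. The gene test and the search for the split were run on simulated counts. There all members on a side of the located break had the same fold change, without scatter between members. That run therefore could not test how well the break is placed among members that scatter.

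Members, boundary and gene groups were chosen with earlier results of these data known, and genes placed in a group without that role were taken out after values were seen. The corepressor NRIP1 stayed in the group of transcription factors. The rule for named genes took the 8 highest and 8 lowest members of each stretch, 4 members on each side of 40 Mb and of the break, the 5 of highest mean CPM, those at least 0.5 from their stretch, 3 of each group, the genes nearest the minimum and ATF4. Other genes were named after their values were seen. Alternatives were DESeq2 1.42.0, limma-voom (limma 3.58.1), other scalings, filters and minimums, a replicate block and each library left out.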

Additional observations from a re-analysis of the deposited data

How the results depend on the processing

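The break lay between RIPK4 and PRDM15 in 23 of 25 settings, which include 9 of 9 pairs of 1 ATF4 knockout and 1 parental library and each library left out. All settings reuse the same libraries and largely the same genes, so their number does not measure how exactly the break is placed. With a minimum of 20 CPM, which takes out PRDM15, the first member after it was C2CD2, which starts at 41.89 Mb. The same start (41.89 Mb) was found when both members next to the break were left out. The last member before the split was then BACE2, which starts at 41.17 Mb. Leaving out both members was an alternative chosen after seeing the data, as was the split of the stretches at the located break. With scaling by total counts in place of TMM factors, the median was -0.28 up to 40 Mb and 0.13 beyond, and the number of members called higher up to 40 Mb was 1 (CHAF1B), against 0 with TMM factors. With a library left out, the median up to 40 Mb minus that beyond ran from -0.42 to -0.40, and the number of members called higher beyond 40 Mb ran from 13 to 19, against 20 in all libraries. It was 13 without ATF4 knockout replicate 2 and 13 without parental replicate 2, and 16 with DESeq2. Members called lower up to 40 Mb numbered 44 or 45 in each alternative run. With the replicate block, 45 members up to 40 Mb were called lower and 20 beyond it higher, 41 were apart from their stretch, and the median up to 40 Mb was -0.31. Libraries of the same number correlated at -0.03, 0.01 and -0.02 after group means were taken out. The labels do not say whether they were handled together, and these correlations cannot decide it. The log2 fold change of 3 members near 0 changed sign, none of them called: the NRIP1 log2 fold change was 0.0153 with total counts and -0.0315 to 0.0004 with a library left out, the SLC37A1 log2 fold change was 0.0004 with limma-voom, 0.0259 with total counts, 0.0042 without a filter and -0.0166 to 0.0163 with a library left out, and the SPATC1L log2 fold change was 0.0129 with total counts and -0.0605 to 0.0204 with a library left out. The cause was not tested. Of members called, 11 lost the call under at least 1 alternative, N6AMT1 under 8 and PDXK under 6 of them, and of those apart from their stretch 9 did. The groups of 3 limit the precision, and levels near the minimum of 10 CPM carry standard errors near 0.08.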

Other observations

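Of the chromosome 21 genes under the minimum for members, the potassium channel gene KCNJ15, at a mean of 4.44 CPM, had the lowest log2 fold change among those from 1 to under 10 CPM (-1.75 ± 0.13 SE, edgeR adjusted p = 2.31e-16). CBR3, a carbonyl reductase gene with a mean of 7.17 CPM, was also called lower (-0.80 ± 0.10, adjusted p = 2.64e-09), while its neighbour CBR1, which encodes a related enzyme and is a member, had -0.31 ± 0.04, the median of its stretch. CXADR, the gene of a virus receptor at cell junctions, had a positive value before the break but was not called (0.22 ± 0.13, adjusted p = 0.177). These 4 genes were picked with their values in view.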
